A study of Homo sapiens with 74 samples.

Results

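RNF113A was profiled by Cut&Run in 2 biological replicates, and both lists of peaks called against the mock IP were used in full. Replicate 1 held 1261 peaks and replicate 2 held 929, together 2190 of the 92122 peaks in 72 lists of 36 zinc finger proteins (ZFPs). The lists of the series ran from 15 to 8702 peaks with a median of 631, so both RNF113A lists were longer than the median. Cut&Run directs a nuclease to the places in native chromatin where an antibody sits, and the released fragments are sequenced. Both RNF113A libraries came from HEK293T cells, an established human embryonic kidney line, transfected with Lipofectamine 3000 and a plasmid carrying the RNF113A open reading frame with a C-terminal V5 tag under the EF1-alpha promoter. Cells were taken after 48 h, and the V5 antibody was Bethyl A190-120A. One well of a 12-well plate made up a biological replicate. The control was the same V5 immunoprecipitation on HEK293T cells that had received no plasmid, so the tagged protein was produced from a plasmid in addition to the cell's own RNF113A, and no library of the untagged protein was compared. The labels give a depth of about 10 M paired-end reads for each library, and no source used here gives exact totals.

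RNF113A joins a CCCH zinc finger, a fold often found in RNA-binding proteins, to a RING domain that works as an E3 ubiquitin ligase. It is a component of the spliceosome at the stage when the 5′ splice site is handed on and the catalytic center forms, as is its yeast homolog Cwc24. In the repair of alkylated DNA it ubiquitinates proteins so that the ASCC complex and the demethylase ALKBH3 are recruited, and its loss is a cause of X-linked trichothiodystrophy. RNF113A is an intronless gene, RNF113B is its retrocopy on another chromosome, and EEF1A1 is the gene whose promoter drives the plasmid. Exons of these 3 genes were therefore kept apart from the rest of the genome.

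The 2 libraries stood apart from each other before any region was considered. Replicate 1 lay mainly at transcription start sites (TSSs) and held a set of short peaks of high fold at 5′ splice sites, while replicate 2 lay most often on tandem repeats. Each result below is therefore given for each replicate, and no test was run, since the replicates are the only samples of their group and peaks of a list are not replicates. Fold is the peak caller's ratio of a library over the mock IP. Shares of a list are given with exact 95% binomial intervals, which cover counting error only.

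Short sequences from the peaks, or from promoters that overlap them, show what each of these groups looked like. The first set shows peaks of replicate 1 at a 5′ splice site, 2 on each strand with the highest fold among those on coding exons with no base annotated as UTR in any transcript. They are written along the gene in hg38, and capitals mark the coding exon that ends at the splice site. The NOC4L peak lay at chr12:132151602-132151767 on the plus strand, the SART1 peak at chr11:65964521-65964698 on the plus strand, the RBM19 peak at chr12:113918310-113918484 on the minus strand and the EIF2B3 peak at chr1:44879739-44879907 on the minus strand.
NOC4L: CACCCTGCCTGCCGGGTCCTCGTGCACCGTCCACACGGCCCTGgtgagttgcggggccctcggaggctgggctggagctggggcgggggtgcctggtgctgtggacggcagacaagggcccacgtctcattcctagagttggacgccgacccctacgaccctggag
SART1: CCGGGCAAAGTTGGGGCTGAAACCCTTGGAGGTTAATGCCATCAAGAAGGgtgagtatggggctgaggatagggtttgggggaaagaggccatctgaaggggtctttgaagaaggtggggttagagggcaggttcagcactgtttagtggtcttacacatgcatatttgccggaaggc
RBM19: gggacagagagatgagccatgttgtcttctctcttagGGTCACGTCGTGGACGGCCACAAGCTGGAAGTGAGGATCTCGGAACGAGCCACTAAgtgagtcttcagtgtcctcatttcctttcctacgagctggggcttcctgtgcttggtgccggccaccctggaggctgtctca
EIF2B3: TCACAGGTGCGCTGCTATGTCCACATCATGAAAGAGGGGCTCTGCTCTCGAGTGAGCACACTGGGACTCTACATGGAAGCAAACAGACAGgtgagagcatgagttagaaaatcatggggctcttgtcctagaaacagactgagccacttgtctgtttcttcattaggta
In all 4 the exon was followed at once by an intron that starts with gt, and each of these peaks was called in replicate 1 and not in replicate 2.

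The second set shows the repeats on which replicate 2 lay, each as 81 bases of the hg38 plus strand around the summit of replicate 2. The PRKCA intron stretch (chr17:66798876-66798956) and the FOXN3 intron stretch (chr14:89361043-89361123) have their TGG or CCA words in capitals, and the repeat on chromosome 7 (chr7:1272303-1272383) has its first unit of 20 bases in capitals. The satellite on chromosome 4 (chr4:49139425-49139505) has the word ATTCC in capitals.
PRKCA intron: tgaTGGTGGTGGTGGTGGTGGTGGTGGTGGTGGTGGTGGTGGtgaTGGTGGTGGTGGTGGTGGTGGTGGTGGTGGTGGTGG
FOXN3 intron: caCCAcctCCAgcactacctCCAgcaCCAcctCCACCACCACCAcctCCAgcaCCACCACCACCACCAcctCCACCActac
chromosome 7 repeat: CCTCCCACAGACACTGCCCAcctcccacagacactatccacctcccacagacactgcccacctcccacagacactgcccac
chromosome 4 satellite: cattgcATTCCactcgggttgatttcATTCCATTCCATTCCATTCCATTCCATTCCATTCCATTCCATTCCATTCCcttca
All of these except the PRKCA stretch lay in regions called in both replicates.

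The third set shows promoters with a region called in both replicates, since such promoters were few. These stretches were placed by the TSS and overlap the called region only in part. Both summits of the CHD1 region lie outside its stretch. So do the replicate 2 summits for HEXIM1 and SRRM2 and the replicate 1 summit for RAB3IP. The words marked therefore describe the promoters and need not lie in the peaks. Each is the 250 bases before the TSS in RefSeq (GRCh38.p14), along the gene, with GGGCGG (the GC box), the CCAAT box or CCGGAA (the ETS word) on either strand in capitals. They lie at chr5:98929008-98929257 (CHD1, minus strand), chr17:45148225-45148474 (HEXIM1, plus strand), chr12:69738610-69738859 (RAB3IP, plus strand) and chr16:2752388-2752637 (SRRM2, plus strand).
CHD1: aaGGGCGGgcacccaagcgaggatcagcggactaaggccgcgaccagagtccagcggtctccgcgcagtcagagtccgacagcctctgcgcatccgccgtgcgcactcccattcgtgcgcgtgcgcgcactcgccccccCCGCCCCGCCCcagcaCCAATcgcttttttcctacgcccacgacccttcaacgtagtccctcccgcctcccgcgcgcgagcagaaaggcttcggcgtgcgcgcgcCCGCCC
HEXIM1: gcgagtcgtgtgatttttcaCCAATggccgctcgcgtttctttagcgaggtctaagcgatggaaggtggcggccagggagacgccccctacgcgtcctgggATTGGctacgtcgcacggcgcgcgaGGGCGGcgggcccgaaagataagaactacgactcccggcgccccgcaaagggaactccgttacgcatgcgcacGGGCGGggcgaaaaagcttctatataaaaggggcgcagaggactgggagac
RAB3IP: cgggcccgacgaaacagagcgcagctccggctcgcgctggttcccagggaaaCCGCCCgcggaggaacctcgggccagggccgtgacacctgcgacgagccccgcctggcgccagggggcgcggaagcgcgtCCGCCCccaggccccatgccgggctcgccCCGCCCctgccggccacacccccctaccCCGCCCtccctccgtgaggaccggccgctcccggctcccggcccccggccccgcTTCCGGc
SRRM2: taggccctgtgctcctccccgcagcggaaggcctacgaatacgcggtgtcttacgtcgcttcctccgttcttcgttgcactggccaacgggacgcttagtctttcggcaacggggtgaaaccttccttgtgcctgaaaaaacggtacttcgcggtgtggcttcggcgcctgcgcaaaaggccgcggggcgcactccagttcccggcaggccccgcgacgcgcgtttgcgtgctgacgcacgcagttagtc
The CHD1 stretch held 4 GGGCGG words and 1 CCAAT word, the HEXIM1 stretch 2 of each, and the RAB3IP stretch 4 GGGCGG words and 1 CCGGAA word. The SRRM2 stretch held none of these words. Of 35116 RefSeq promoter stretches of this length, 42.6% held GGGCGG, 32.01% CCAAT and 14.5% CCGGAA.

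Both lists were led by RNF113A and EEF1A1. The single exon of RNF113A carried the peak of highest fold in each list, at chrX:119870583-119871734, with 4056 in replicate 1 and 4035 in replicate 2 and the summit on the same base. Among the 70 lists of other ZFPs only 2 had a peak on an RNF113A exon, and the higher of these had a fold of 6.39, so each library carried the gene of its label. EEF1A1 followed at chr6:73520048-73521351 with 3915 and 3136, and here all 70 other lists had a peak too, with folds from 6.98 to 7903. RNF113B carried 2 regions in both lists. The region at chr13:98177091-98177255 had folds of 121.5 and 126.9, and the region at chr13:98176305-98176769 had 104.9 and 105.1. The second of these matched RNF113A at 402 of 465 bases, or 86.5% without gaps, and the first at 64.2% of 165 bases.

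The stretch below is the 100 bases of the first RNF113B region that are most like RNF113A, at chr13:98177092-98177191, beside the matching stretch of RNF113A at chrX:119871478-119871577. This window was chosen as the most alike, and none of the 135 words of 31 bases in the whole region occurs in RNF113A. Both are from the minus strand of hg38, and capitals mark the 10 bases that differ.
RNF113B: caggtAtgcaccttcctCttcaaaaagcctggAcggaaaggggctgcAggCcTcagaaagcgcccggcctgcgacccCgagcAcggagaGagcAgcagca
RNF113A: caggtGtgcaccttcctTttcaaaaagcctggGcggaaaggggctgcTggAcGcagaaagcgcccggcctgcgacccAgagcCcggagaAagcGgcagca
How the RNF113B folds divide between reads of the plasmid and of RNF113B itself was not tested.

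Away from those exons, 138 regions were called in both replicates, out of 142 in all. They took in 11.6% of replicate 1 (146 peaks, interval 9.86 to 13.5%) and 17.98% of replicate 2 (167 peaks, 15.6 to 20.6%), with the 4 regions on exons of RNF113A, RNF113B and EEF1A1 included. Summits in these 138 regions lay a median of 40 bp apart, and 98 of the 138 lay within 100 bp. With a reciprocal overlap of 50% in place of 1 bp, 75 regions remained in all. Most of the shared regions were repeated sequence: 40 lay on rDNA, 30 on tandem repeats, 24 on satellite-like sequence and 7 on telomeric repeats. A further 20 were promoters, 6 intergenic, 5 intronic, 3 at EEF1A1 pseudogenes, 2 on other contigs and 1 on a coding exon. Together 106 regions (76.8%) fell in the repeat, contig and EEF1A1 pseudogene classes, and 32 (23.2%) in the other classes. The 32 are not all unique sequence, since they include the processed pseudogenes ENSG00000257405 and DUX4L26. They also include a chromosome 21 region at MIR3648-2, outside the stretch counted as rDNA, while a region at MIR3648-1 was counted as rDNA. Whether both lists were called against 1 mock IP is not stated, so their calls may share a control.

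**Figure D1:**
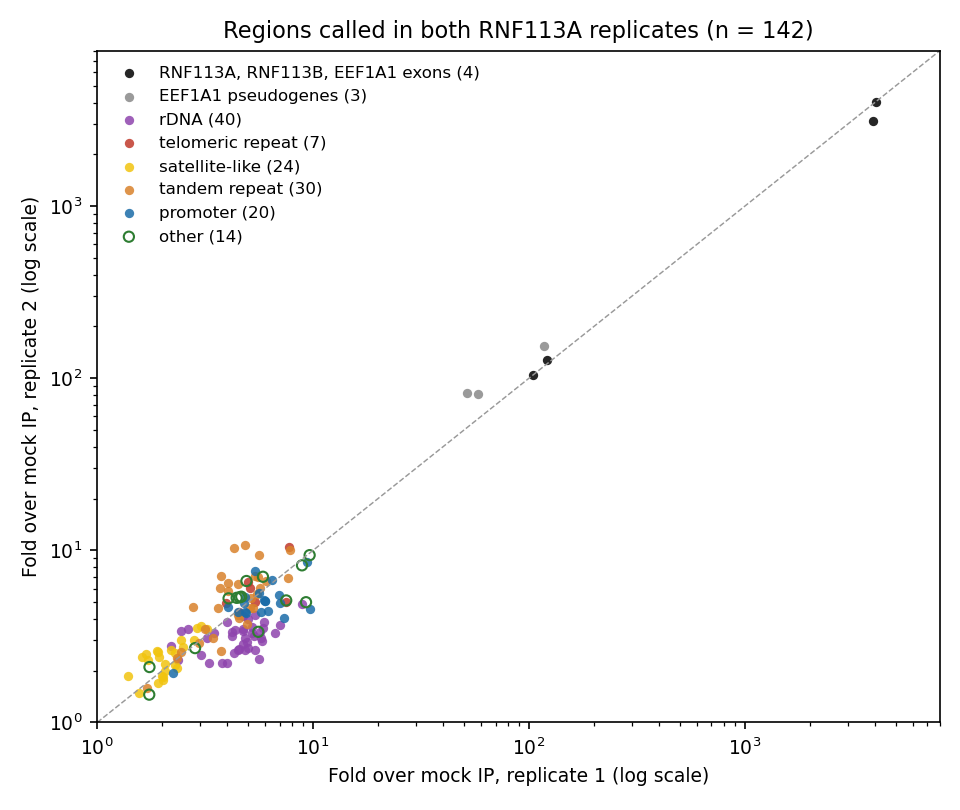
Fold over mock IP of each of the 142 regions called in both RNF113A replicates, replicate 1 on the horizontal and replicate 2 on the vertical axis (both log scales), colored by class, with equal folds on the dashed line. Regions on exons of RNF113A, RNF113B and EEF1A1 and those on or beside the 3 EEF1A1 pseudogenes lie above 50 in both replicates, and every other region lies below 11.

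The shared regions of highest fold outside those exons lay on or beside processed copies of EEF1A1. EEF1A1P5 (chr9:133019423-133019579) had folds of 117.4 and 154.5, and 80.3% of its 31-base words occur in EEF1A1. EEF1A1P6 (chr7:22512028-22512183) had 58.3 and 81.3, and EEF1A1P13 (chr5:14653355-14653510) had 51.4 and 81.7. The EEF1A1P6 and EEF1A1P13 regions lay beside the annotated pseudogenes, 29 and 26 bp from their TSSs, the former in an intron of STEAP1B. In each of them, 5 of 126 such words (3.97%) occur in EEF1A1. Folds were higher in replicate 2 at all 3 pseudogenes, while EEF1A1 itself was higher in replicate 1. Each pseudogene was called in 4 of the 70 other lists.

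CISD1, which encodes an iron-sulfur protein of the outer mitochondrial membrane and is itself one of the ZFPs of the series, carried shared regions that overlap its exons. By the lower fold of the 2 replicates its last coding exon was next. This exon (chr10:58287559-58287740) had folds of 9.64 and 9.38 and was called in none of the 70 other lists, those of CISD1 included. A region at the CISD1 promoter (chr10:58269273-58269525), which overlaps the end of the first exon, had 9.64 and 4.53, and 14 other lists had a peak there. Of its 223 words of 31 bases, 2 (0.897%) occur in CISD1 exons, against 150 of 152 (98.7%) in the region at the last coding exon. The middle coding exon was called in replicate 1 only, at chr10:58277115-58277271 with a fold of 8.03, and CISD1's own lists had 1159 and 1110 there. ENSG00000257405 on chromosome 12 (chr12:42636817-42637173) had folds of 9.40 and 8.56 in the RNF113A lists. Of the 327 words of 31 bases in that region, 83 (25.4%) occur in CISD1 exons, and both CISD1 lists had a peak there with folds from 744 to 842. Among coding exons of the other ZFPs profiled here, WBP4 was called besides CISD1, in replicate 1 only with a fold of 4.82. The source of the reads on CISD1 was not tested.

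Of the 16 shared regions within 1 kb of a protein-coding TSS, 14 lay outside the repeat classes. They included CHD1, a chromatin remodeler of active genes, with folds of 6.43 and 6.70 (chr5:98929189-98929561) and summits 5 bp apart. That region lay 182 bp from a CHD1 TSS and 1 bp from a TSS of the noncoding gene CHD1-DT. HEXIM1, which holds the elongation kinase P-TEFb inactive together with 7SK RNA, had 6.02 and 5.11 (chr17:45148308-45148620). SRRM2, a scaffold of nuclear speckles that is also found in spliceosomes, had 4.82 and 5.36 (chr16:2752396-2752914). These 3 regions were also called for other ZFPs. CHD1 was called in 14 of the 70 other lists (median fold 6.35), HEXIM1 in 7 (6.07) and SRRM2 in 12 (6.48). The medians for HEXIM1 and SRRM2 were above both RNF113A values. MPG, the glycosylase that removes alkylated purines from DNA, had 5.99 and 5.11 (chr16:78282-78564), and 2 of the 70 other lists had a peak there. NFE2L2, the transcription factor of the oxidative stress response, had 5.37 and 7.55 (chr2:177263576-177263850). That region was called in 32 other lists with a median fold of 9.10, above both RNF113A values.

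The other shared promoters served varied functions. RAB3IP, an exchange factor for Rab8 in membrane traffic, had folds of 5.62 and 5.66, and NBPF1, of the neuroblastoma breakpoint family, had 6.92 and 5.50. MGAT1, which starts the branching of N-glycans, had 7.03 and 4.92, and UQCC2, an assembly factor of respiratory complex III, had 4.79 and 4.92. SLC3A2, the heavy chain of several amino acid transporters, had 4.82 and 4.39. The promoter shared by ADAT3, a subunit of the tRNA adenosine deaminase, and SCAMP4 had 5.75 and 4.39. PDCD2, which takes part in ribosome assembly, had 4.87 and 4.32. HLTF, a translocase that remodels stalled replication forks, had 4.02 and 4.69 and was called in 2 other lists. PDCD2 was called in 4 other lists, RAB3IP and UQCC2 in 9 each, SLC3A2 in 13, MGAT1 in 14, and NBPF1 and ADAT3 in 16 each. The remaining pair lay on tandem repeats at promoters, ADAP1 (4.30 and 10.3, chr7:905448-906535) and the mucin gene MUC3A (2.33 and 2.37). These were called in 53 and 51 other lists. Over all 20 shared regions of the promoter class, fold was higher in replicate 1 in 14, with medians of 5.83 and 4.92.

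Ribosomal DNA (rDNA), the arrays that encode ribosomal RNA, held the largest number of shared regions. It carried 88 peaks of replicate 1 (6.98%, interval 5.63 to 8.53%) and 97 of replicate 2 (10.4%, 8.55 to 12.6%). Replicate 1 covered 70268 bp there with a median fold of 4.22, and replicate 2 covered 32774 bp with a median of 2.88. In 37 of the 40 shared rDNA regions the fold was higher in replicate 1. The peaks also lay differently along the array. On chromosome 21, 37 of 40 peaks of replicate 1 lay within 8 kb of one of 4 annotated 5.8S rRNA genes, against 27 of 51 in replicate 2. Of those 27 peaks, 26 overlapped a peak of replicate 1, and of the 24 farther away, 3 did. Of the 31-base words in the 2 rDNA contigs outside the assembled chromosomes, 71.6% and 63.4% also occur in the chromosome 21 arrays, so the copy a read came from is uncertain.

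Satellite-like peaks, with at least 5 ATTCC or GGAAT words within 100 bp of the summit, made up 2.3% of replicate 1 (29 peaks, 1.55 to 3.29%) and 10.98% of replicate 2 (102 peaks, 9.04 to 13.2%). Such pentamers are the unit of the human satellites beside centromeres. The largest block of them, at chr4:49091783-49154965, held 9 peaks of replicate 1 and 20 of replicate 2, with folds from 1.69 to 3.02 and from 1.61 to 3.61. A block at chr1:143189929-143254567 held 5 and 9, and one at chr5:49601538-49667208 held 5 and 8. Smaller blocks at chr2:89827977-89836604 and chr4:49634272-49652401 held 0 and 5, and 1 and 4. All of the replicate 1 peaks in the first 3 blocks overlapped peaks of replicate 2. Satellite-like folds were the lowest of any class, with medians of 2.07 and 2.56, and were higher in replicate 2 in 16 of 24 shared regions. Both RNF113A shares were below the middle of the other ZFPs, since the shares of the 70 other lists ran from 0 to 69.0% with a median of 29.99%.

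Telomeric repeats were found in both replicates and at more chromosome ends in replicate 2. Replicate 1 had 7 such peaks with folds from 3.95 to 7.71, all of them also in replicate 2, which had 15 with folds from 3.18 to 10.4. Within 20 kb of a chromosome end lay 5 of the 7 and 11 of the 15. An internal telomeric stretch in an intron of BET1L on chromosome 11 (chr11:175500-175860) had 5.37 and 5.03 and was called in none of the 70 other lists.

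**Figure D2:**
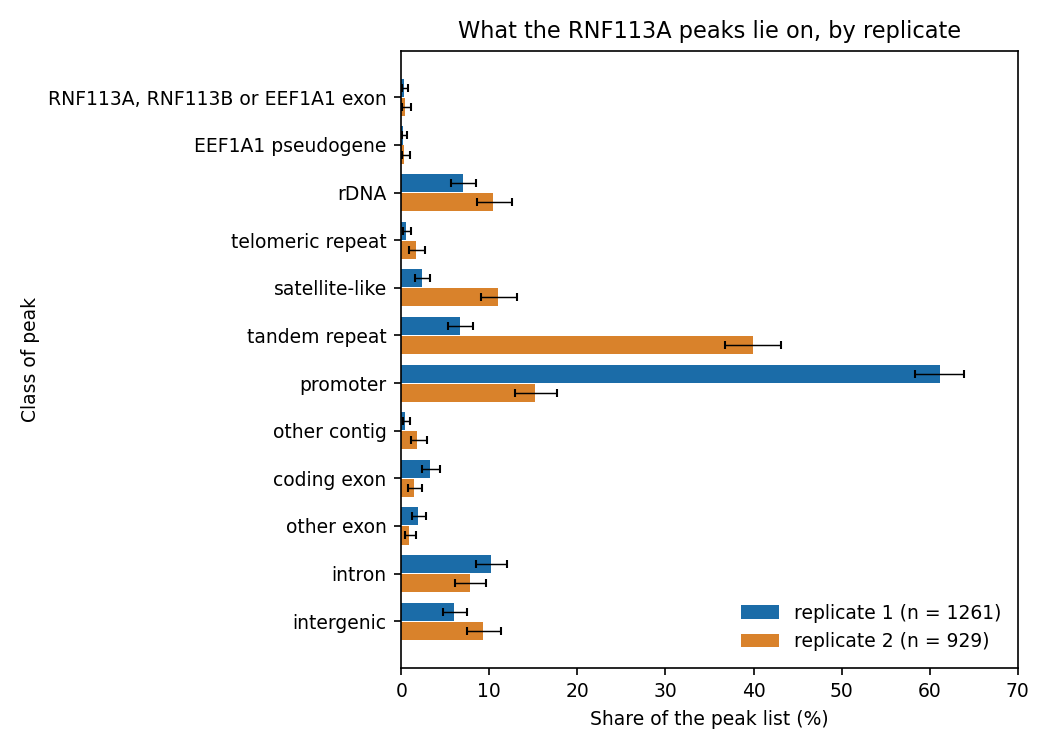
Share of each RNF113A peak list (horizontal axis, %) in each class of sequence (vertical axis), replicate 1 in blue and replicate 2 in orange, with exact 95% binomial intervals. The promoter class takes 61.1% of replicate 1 and 15.2% of replicate 2, and the tandem repeat class 6.66% and 39.9%.

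The lists differed widely in nearness to a TSS. Within 1 kb of a TSS lay 63.7% of replicate 1 (803 of 1261 peaks, interval 61.0 to 66.3%) and 22.3% of replicate 2 (207 of 929, 19.6 to 25.1%). Joined, the lists gave 46.1%, and the SD of the 2 shares was 29.3 percentage points (n = 2). A gap of 41.4 points was the largest among the 36 ZFPs, followed by 35.9 points for ZMAT3, and the other ZFPs had a median of 9.45 points. The peak covered a TSS in 34.8% of replicate 1 and 6.03% of replicate 2, and 56.9% and 13.3% lay within 1 kb of a protein-coding TSS. Conversely, 6.34% and 16.9% lay over 100 kb from any TSS or on a contig without annotation. Within 5 Mb of a chromosome end, which is 7.77% of the assembled chromosomes, lay 19.5% of replicate 1 and 31.97% of replicate 2. With repeats and rDNA left out, 73.9% and 43.0% lay within 1 kb of a TSS, so the order of the lists was kept and the gap was narrower.

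**Figure D3:**
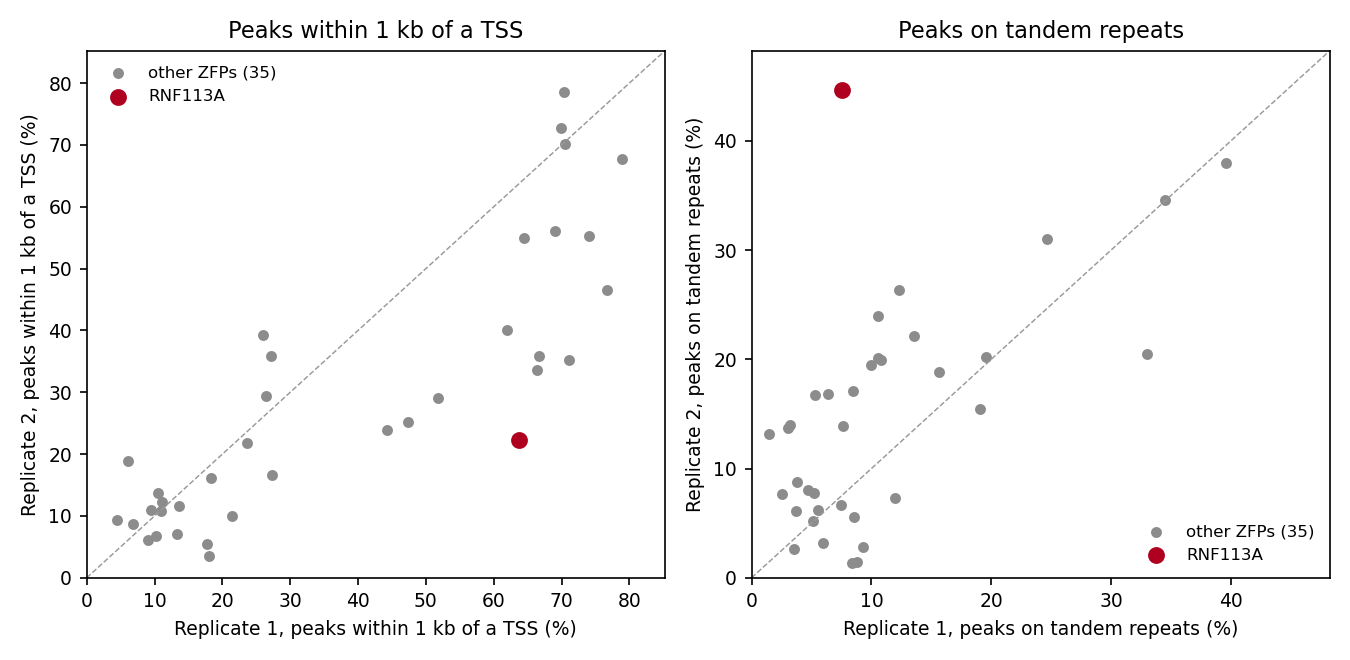
Each point is a ZFP, with the share of its replicate 1 list on the horizontal and of its replicate 2 list on the vertical axis (%), for peaks within 1 kb of a TSS on the left and peaks on tandem repeats on the right, and equal shares on the dashed line. RNF113A, in red, lies farther from the line than any of the 35 other ZFPs in both panels, at 63.7% and 22.3% on the left and at 7.53% and 44.7% on the right.

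Promoter peaks of the lists were alike in median fold, and most were found in 1 list only. The promoter class, which leaves out repeats, held 771 peaks of replicate 1 and 141 of replicate 2, and 2.72% and 14.2% of these were found in the other list. For comparison, 4.07% of all 20020 protein-coding genes had a peak within 1 kb of a TSS in replicate 1. In replicate 2 this share was 0.744%, and 0.13% had such a peak in both. Whether the sharing departs from these base shares was not tested. Of the promoter peaks, 706 and 102 lay within 1 kb of a protein-coding TSS. Their summits lay a median of 3 bp past it in replicate 1 and 39 bp past it in replicate 2, and 74.2% and 65.7% lay within 250 bp. Median GC content of the 201 bp around the summit was 70.1% and 68.2%, against 66.7% at all protein-coding TSSs. CpG-rich windows (GC of at least 50% and a CpG ratio of at least 0.6) made up 82.2% and 69.5%, against 67.9% of 19958 protein-coding TSSs.

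Words of known promoter elements were searched on both strands in the same windows. GGGCGG was in 58.1% of promoter peaks of replicate 1 and 53.2% of replicate 2, against 53.6% of protein-coding TSSs. CCAAT was in 14.8% and 9.93% against 25.3%, and CCGGAA in 14.9% and 9.22% against 17.8%. TATAAA was in 1.43% and 1.42% against 6.68%. CACGTG, the E box, was in 4.28% and 1.42% against 5.68%, the CRE word TGACGTCA in 1.56% and 0 of 141 (which allows up to 2.58%) against 2.01%, and TGANTCA, the AP-1 word, in 1.82% and 1.42% against 3.08%. For the CCAAT, the CCGGAA and the TATAAA word the intervals of both lists lay below the share at protein-coding TSSs, and those of replicate 2 were wide, 5.54 to 16.1% for CCAAT. A window centered on a summit is not placed on the TSS in the same way as the comparison set, and this was not adjusted for.

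Nearest genes followed the peaks. Within 100 kb, peaks of replicate 1 had 1095 different nearest genes and peaks of replicate 2 had 619, which made 1610 joined. The lists shared 104 genes, 9.50% of replicate 1 and 16.8% of replicate 2. Of these, 74 lay next to overlapping peaks, and 30 were nearest to peaks at different places. Within 1 kb the counts were 786 and 197, with 41 shared. The nearest gene was protein-coding for 69.8% of replicate 1 peaks with annotation (67.1 to 72.4%) and 44.7% of replicate 2 (41.1 to 48.3%). It was a lncRNA for 17.2% and 23.96% and a processed pseudogene for 3.98% and 11.3%.

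A peak within 1 kb of a TSS was found at 4.07% of all 20020 protein-coding genes in replicate 1, 0.744% in replicate 2 and 0.13% in both. Over 61228 genes of all biotypes these shares were 1.9%, 0.438% and 0.109%. The gene lists that relate to RNF113A's known roles are short, so their shares rest on few genes. Of 54 late spliceosome genes, 6 had a peak in replicate 1 (11.1%), 3 in replicate 2 (5.56%) and 1 in both, all above the shares of all protein-coding genes, and no test was run. The last was SRRM2. In replicate 1 the others were the helicase DDX41 (5.37), the second-step factor PRPF18 (33.7) and the U2 snRNP subunits SF3A2 (4.41), SF3B1 (28.9) and SF3B2 (5.62), and in replicate 2 they were the helicase DHX8 (4.65) and the RING-domain cyclophilin PPIL2 (5.48). Of 12 alkylation repair genes, MPG was called in both (8.33% of the list) and no other in either. Of 16 TFIIH and trichothiodystrophy genes, only the methionyl-tRNA synthetase gene MARS1 was called, in replicate 1 (18.01). Of 36 genes of ubiquitin and E2 enzymes, CDC34 and UBE2J1 were called, both in replicate 1 with 4.82.

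Heat shock genes had the highest share of any list, 6 of 19 (31.6%) in replicate 1 and 0 of 19 in replicate 2. These were the co-chaperone DNAJB1 (6.91), the chaperones HSP90AA1 (5.62), HSP90B1 (5.62) and HSPA1B (4.59), the mitochondrial chaperone HSPA9 (20.8) and the small heat shock protein HSPB1 (4.02). The HSPA9 peak lay on a coding exon 854 bp from a TSS and is among the short peaks at 5′ splice sites described below. DNA replication genes had 5 of 49 in replicate 1, among them PCNA, the sliding clamp (6.06), and ORC6, of the origin recognition complex (5.47). Immediate early genes had 2 of 25, BTG2 (5.72) and EGR1 (4.70), and HOX genes 2 of 39, HOXC13 (7.81) and HOXA11 (4.70). Ribosomal protein genes had 3 of 88, mitochondrial ribosomal protein genes 3 of 78, snRNA genes 2 of 49, snoRNA host genes 1 of 31 and histone genes 1 of 69, all in replicate 1. Of 508 ZNF genes, 21 were called in replicate 1 (4.13%) and 2 in replicate 2 (0.394%), against 4.07% and 0.744% of all protein-coding genes. None of these lists had a member in both replicates.

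Median fold hardly differed between the lists, 4.82 in replicate 1 and 4.85 in replicate 2, although most of their peaks were found in 1 list only. Promoter peaks within 1 kb of a TSS had medians of 4.93 and 4.96, and other peaks 4.62 and 4.81. Peaks found in both lists, without those on exons of RNF113A, RNF113B and EEF1A1, had 4.56 and 3.42, and peaks found in 1 list only had 4.82 and 5.00. The lists differed at the top. A fold of at least 10 was reached by 66 peaks of replicate 1 (5.23%, 4.07 to 6.61%) and 15 of replicate 2 (1.61%, 0.906 to 2.65%). In each list 7 of these lay on exons of RNF113A, RNF113B or EEF1A1 or on or beside EEF1A1 pseudogenes.

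Most of the remaining high folds of replicate 1 formed a single set of short peaks on exons. It held 53 peaks of 152 to 182 bp (median 169) with folds from 15.0 to 41.9 (median 25.5), and no peak of replicate 1 had a fold from 12 to 14. The limits of the set, a fold of at least 14 and a width of at most 200 bp, were set after the values were seen, so fold and width describe the set and are no result. Of the 53 peaks, 51 lay on an exon of a protein-coding gene, and they touched 53 genes. None of the 53 was found in replicate 2, in which a single peak passed the same limits, in an intron of PTPRD on chromosome 9 with a fold of 16.4. The highest folds were at RUVBL2, a helicase of chromatin remodeling and snoRNP assembly (41.9), UPP1, a uridine phosphorylase (39.1), NOC4L, a factor of small ribosomal subunit assembly (36.9), SNRPB, a core protein of spliceosomal snRNPs (36.1), and PRMT1, the main arginine methyltransferase (35.9). The 5 promoter peaks of highest fold found in replicate 1 alone were all in this set, namely RUVBL2, NOC4L, PRMT1, PRPF18 and TUBGCP2, of the gamma-tubulin complex (32.3).

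These peaks lay at a fixed place on their genes. Of the 53, 51 had an annotated 5′ splice site, where an exon ends and its intron begins, within 65 bp of the middle of the peak. Along the gene, the middle lay 36.5 to 60.5 bp into the intron in the 27 genes on the plus strand (median 45), and from -11.5 to 3 bp in the 24 on the minus strand (median -5). The 2 strands thus did not overlap in this measure, and each peak spanned the end of an exon and the start of its intron. All 51 introns began with GT, which describes the annotated 5′ splice sites and is no separate result on the peaks. A median of 53.3% of the peak was exon by annotation, 35 peaks lay partly and 16 wholly on exons of some transcript, and with splice sites of Ensembl canonical transcripts only, 28 of 53 were within the same distance. The exceptions were peaks in introns of EIF2S2 (25.2) and PCBD2 (16.7). Of the other peaks of replicate 1 on protein-coding exons, 156 of 546 (28.6%) lay within 65 bp of a 5′ splice site, and of those of replicate 2, 32 of 94 (34.0%). The distance limit was also set after the values were seen.

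**Figure D4:**
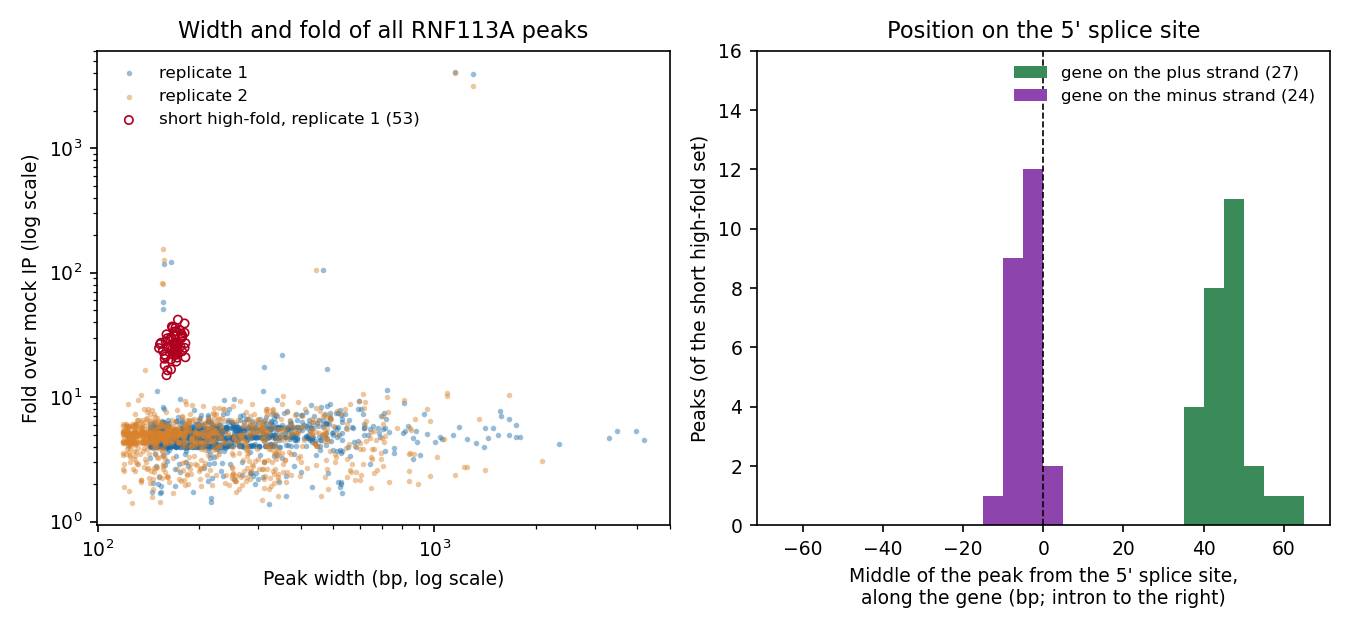
Left, width in bp (horizontal) and fold over mock IP (vertical, both log scales) of all RNF113A peaks, with the 53 short high-fold peaks of replicate 1 ringed in red. Right, distance in bp from the 5′ splice site to the middle of the peak along the gene (horizontal) against the number of peaks of that set (vertical), in which the 27 genes on the plus strand lie from 36.5 to 60.5 bp and the 24 on the minus strand from -11.5 to 3 bp.

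Their other features differed from those of the promoter peaks, which fold and width did not fix. Median GC content was 44.8% and median CpG ratio 0.262, against 70.1% and 0.871 for promoter peaks of replicate 1. Of the 53, 28 (52.8%) lay within 1 kb of a TSS and so counted toward the promoter share. On the late spliceosome list, 3 of 54 genes (5.56%, interval 1.16 to 15.4%) had such an exon peak, against 53 of 20020 protein-coding genes (0.265%). They carried 4 peaks, at both PRPF18 (33.7 and 28.1) and SF3B1 (28.9), named above, and at CRNKL1, of the spliceosomal core (29.7). The genes named next are not on the late spliceosome list and were chosen after their values were seen. Among them, MARS1 is on the TFIIH and trichothiodystrophy list. SART1 (30.3) and USP39 (31.1) act in the U4/U6.U5 tri-snRNP, SNRNP70 (23.2) is a U1 snRNP protein, and U2AF2 (20.3) binds the polypyrimidine tract before a 3′ splice site. SRSF3 (21.9) is an SR protein and SRPK1 (22.2) the kinase of such proteins. Other members were GAPDH, of glycolysis (30.2), RPS9, of the small ribosomal subunit (32.8), VCP, a segregase of ubiquitinated proteins (24.8), the proteasome subunits PSMD7 (26.6), PSMA7 (25.5), PSMA3 (25.5) and PSMC1 (21.9), and tRNA synthetases such as VARS1 (25.5), QARS1 (24.8) and MARS1 (18.01). No enrichment was tested.

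By the fold and width limits drawn from replicate 1, peaks of this kind were rare elsewhere in the series. By the same fold and width on a protein-coding exon, 32 of the 70 other lists held none and no other list held more than 4, the number in both lists of U2AF1, a factor of 3′ splice site recognition. Whether those U2AF1 peaks lie on exons of U2AF1 itself, the gene on the plasmid of that list, was not tested. Of the 53 regions, 38 were called in none of the 70 other lists and 46 in at most 1. Replicate 1 of RBM5, another splicing factor, called 12 of the 53, with folds from 8.75 to 15.9 (median 10.7), and its replicate 2 called 2. The RBM5 lists held 166 and 437 peaks in all. By the limits above they counted 1 and 0 such peaks, so the limits miss sites called at a lower fold. Since the set was found in 1 of the 2 replicates, the protein and the single library of replicate 1 cannot be told apart as its source.

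The other 6 peaks of replicate 1 with a fold of at least 10 included genes of small noncoding RNAs. A peak at chr14:49586579-49586890 covered RN7SL1, a gene of the 7SL RNA of the signal recognition particle, with a fold of 17.6, and it is also the peak within 1 kb of RPS29 counted among ribosomal protein genes. RN7SL2 had 11.1 (chr14:49862551-49862860), and the U1 snRNA gene RNU1-4 had 16.8 (chr1:16740210-16740689). An unlocalized contig of chromosome 1 had 22.0, a coding exon of RRM1, the large subunit of ribonucleotide reductase, had 11.2, and a tandem repeat near TMEM87B had 11.5. None of the 6 was found in replicate 2. The genes RN7SL1, RN7SL2 and RNU1-4 have near-identical copies in the genome, among which reads can be split.

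In replicate 2 the prevailing sequence was the tandem repeat. A peak was counted when at least 60% of the bases within 100 bp of its summit matched the same sequence shifted by 2 to 99 bp, satellite-like peaks left out. Such peaks made up 7.53% of replicate 1 (95 peaks, 6.14 to 9.13%) and 44.7% of replicate 2 (415 peaks, 41.4 to 47.9%). This gap of 37.1 points was the largest of the 36 ZFPs, followed by 14.1 points for ZNF800, and the replicate 2 share was above that of each of the 70 other lists, of which ZNF574 had the highest, 39.6% and 37.96%. The measure was chosen after the values were seen. In windows 2 kb to either side of the peaks 4.65% and 16.1% passed the 60% limit, with satellite-like windows kept. Counted in that way, the shares of the peaks were 9.52% and 54.7%. The difference held among peaks over 1 kb from a TSS, 18.1% and 51.0%, and within 1 kb, 1.49% and 22.7%.

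**Figure D5:**
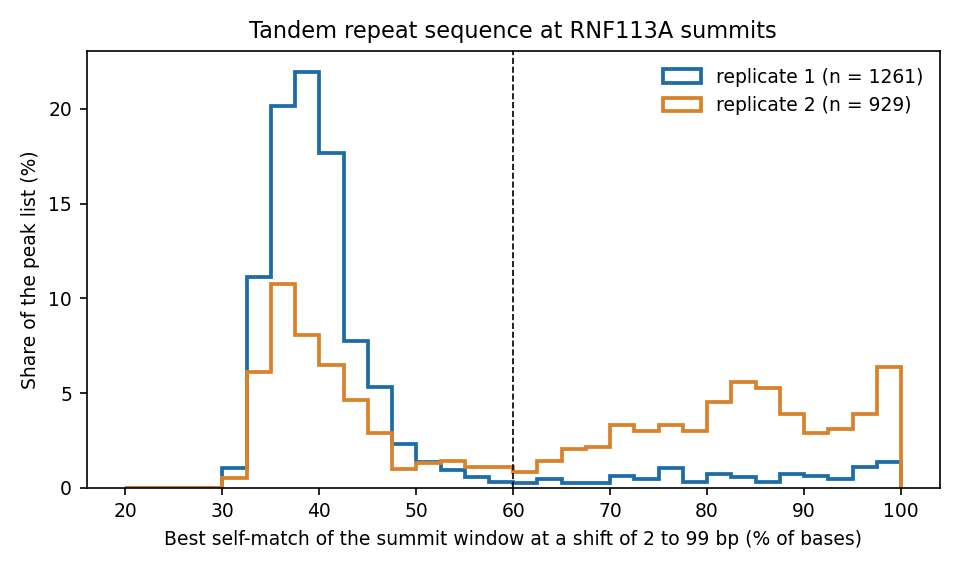
Distribution of the best self-match of the summit window at a shift of 2 to 99 bp (horizontal axis, % of bases) as a share of each RNF113A list (vertical axis, %), replicate 1 in blue and replicate 2 in orange, all peaks included, with the 60% limit dashed. At or over the limit lie 9.52% of replicate 1 and 54.7% of replicate 2, satellite-like and telomeric peaks included.

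Most of the repeats lay near chromosome ends. In the tandem repeat class, which also leaves out rDNA and telomeric repeats, replicate 1 had 84 peaks and replicate 2 had 371, with a best match at a median shift of 48 and 43 bp. That shift is not the length of a unit, since a short unit also matches at multiples of its length. Within 5 Mb of a chromosome end lay 63.1% and 56.9% of them. Repeats of TGG or its complement were 13 peaks in replicate 1 (1.03%) and 91 in replicate 2 (9.80%). Median folds of the class were 4.84 and 5.12, and 20 of the 30 shared tandem regions had the higher fold in replicate 2.

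Named examples show the range. An intron of PRKCA, the alpha isoform of protein kinase C, had the highest fold of the class in replicate 2, 10.8 at chr17:66798401-66799487, on a TGG repeat that replicate 1 did not call. An intergenic repeat of 20 bp units at chr7:1272161-1272775 had 10.7 in replicate 2 and 4.86 in replicate 1. An intron of FOXN3, a forkhead repressor (chr14:89360769-89361688), had 10.0 in replicate 2 and 7.81 in replicate 1. PRKAG2, a subunit of AMP-activated kinase, had an intronic repeat of fold 10.3 in replicate 2 only, and an intergenic repeat on chromosome 4, 22578 bp from the nearest TSS (TRIM2), had 10.5. In an intron of SART1, a repeat at chr11:65971227-65971490 had 9.38 in replicate 2 and 5.62 in replicate 1, apart from the splice site peak of that gene. Among peaks near protein-coding TSSs found in replicate 2 alone, the highest were MICAL3 (9.53), TMEM216 (7.99), AHRR (7.37), GAGE2E (7.26) and LGR6 (6.71), of which MICAL3, AHRR and LGR6 lay on tandem repeats. MICAL3 encodes an actin-oxidizing enzyme, TMEM216 a protein of the ciliary transition zone and AHRR the repressor of the aryl hydrocarbon receptor.

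Other shared regions outside the promoter and repeat classes were few. The tandem repeat class used shifts of 2 to 99 bp, so repeats of longer units can be among them. In introns, ACSL3, a long-chain acyl-CoA synthetase, had 8.89 and 8.18 (chr2:222866308-222866797) and was called in 24 of the 70 other lists. DANT2, a noncoding gene on the X chromosome, had regions of 7.51 and 5.12 and of 4.06 and 5.26, called in 28 and 13 other lists. Of the 6 intergenic regions, 4 lay close together on chromosome 9 between positions 60582495 and 60637057, with folds from 4.56 to 9.28 in replicate 1 and from 5.00 to 6.63 in replicate 2. One of these 4 was called in none of the 70 other lists and the others in 9 to 12.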

How the data were processed

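Peak lists of RNF113A Cut&Run (2 biological replicates) were used with the lists of 35 other ZFPs as a comparison. Per the labels and the methods, the authors trimmed reads with Trimmomatic 0.36, aligned them to hg38 with Bowtie2 2.3.5.1, removed duplicates with Picard 0.1.8 and called each library's peaks with MACS2 2.2.7.1, with its batch's mock IP as control (FDR threshold 0.05). The deposited fold is a ratio over the mock IP. The deposited −log10 p and −log10 q values are the peak caller's, and the deposited score is 10 times −log10 q. No mock IP list was used. Since no source used here gives read totals or batches, lists were compared by length, which is not a measure of depth.

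Peaks were placed on GENCODE 44 with bedtools 2.31.1, pysam 0.24.0, pandas 2.3.3, scipy 1.17.1 and numpy 2.4.6 under Python 3.11.15 (figures by matplotlib 3.10.9). Distances run from the nearest edge of a peak to any annotated TSS. Overlap means 1 bp. Each peak was put in the first class it met, in the order exon of RNF113A, RNF113B or EEF1A1, EEF1A1 pseudogene, rDNA (2 contigs and chromosome 21 within 50 kb of its rRNA genes), telomeric (at least 10 hexamers), satellite-like, tandem repeat, promoter, contig, exon, intron, intergenic. The steps were tested on simulated data.

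The members and gene lists were chosen with earlier results of these data known, and the tandem repeat, telomeric, rDNA and splice site classes after the values were seen. Named regions are every shared region within 1 kb of a protein-coding TSS (up to 20), the 5 other shared regions of highest lower fold, the satellite blocks with the most peaks, the 5 highest promoter peaks of each list alone, and the members of the spliceosome and alkylation repair lists called in both. A block on chromosome Y is left out, and a few named items are not reported here. Other regions named were chosen after their values were seen. Alternatives were other q thresholds, distances, TSS sets, overlap rules and list lengths.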

Additional observations from a re-analysis of the deposited data

How the results depend on the processing

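No paired analysis was possible because no result comes from a test and the 2 replicates belong to 1 group. Of 91 alternative values, 57 moved by less than the counting interval, the SD of the replicates or 1.5 times for a count, and 34 moved by more. Some of the 57 could not have moved. Replicate 2 is the shorter list, so equal length left its TSS and tandem repeat shares as they were. With 2 replicates, leaving 1 out shifts the joined TSS share by less than their SD by construction. Replicate 1 kept the higher promoter share under each alternative. The shares of replicates 1 and 2 were 60.6% and 16.6% at a q of at most 0.001, 59.5% and 16.7% within 500 bp, 76.2% and 42.3% within 5 kb, and 56.9% and 13.3% for protein-coding TSSs. On assembled chromosomes replicate 1 had 67.0%. Without repeat and rDNA peaks, an alternative chosen after seeing the data, they were 73.9% and 43.0%. Leaving out a replicate gave joined shares from 22.3 to 63.7% and 619 to 1095 nearest genes.

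Shared regions numbered 75 with a reciprocal overlap of 50% (5.95% and 8.07% of the lists), 93 at a q of at most 0.001 (20% and 20.8%) and 41 without repeat and rDNA peaks (3.89% and 12.2%). Summits within 250 bp gave 13.8% of replicate 2, lists of equal length 13.8% of replicate 1, and lists without satellite-like peaks 9.74% of replicate 1. Nearest genes within 1 kb were 197 in replicate 2, 942 joined and 41 shared. Without satellite-like peaks the median fold of replicate 2 was 5.00 over all peaks and 5.03 over those beyond 1 kb. Tandem repeat shares, in alternatives chosen after seeing the data, were 10.4% and 48.7% at a self-match of 50%, 39.0% of replicate 2 at 70%, and 9.69% of replicate 1 at a q of at most 0.001. With canonical transcripts 28 of the 53 short peaks lay at a 5′ splice site. The cause of these shifts was not tested beyond what each alternative leaves out. The exact depth of the libraries is unknown, so a region missing from a list may have been below detection.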
